A study of Mus musculus with 2 samples.

Results

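The genes described here are 10 genes of Toll-like receptor recognition, Cd14, Ly96, Lbp, Tlr2, Tlr3, Tlr4, Tlr6, Myd88, Irak3 and Ticam1, out of 23183 gene symbols measured. They were taken by symbol, with the rows of a symbol summed, and were chosen from results of the same libraries in which Cd14 was already seen to be higher in HG+PC-NVs, so their ratios are given as a description. RNA was sequenced from primary mouse cavernous endothelial cells (MCECs), grown from the penis of male C57BL/6J mice of 8 weeks and used at passages 2 to 4. Both cultures were kept in high glucose (HG, 30 mM), and the question was what pericyte-derived nanovesicles add to that state. HG+HBS received the vehicle, HEPES-buffered saline, and HG+PC-NVs received 1 µg/mL of PC-NVs, particles made by pressing cultured mouse cavernous pericytes through membranes. By the methods, RNA was taken 72 hours after glucose was changed and 24 hours after the vesicles were added, whereas the sample labels give 5 days of glucose. There was 1 library per condition, so no difference could be set against the spread between cultures, and every value below describes these 2 libraries.

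Toll-like receptors are membrane proteins that bind molecules of microbes and of damaged tissue and pass the signal through a cytoplasmic TIR domain. For bacterial lipopolysaccharide the path is well known: the secreted protein Lbp hands the lipid to Cd14, Cd14 hands it to MD-2 (the product of Ly96), and MD-2 bound to Tlr4 triggers the receptor. The adaptor Myd88 leads from most Toll-like receptors to NF-kB and inflammatory genes, and the adaptor TRIF (the product of Ticam1) leads from Tlr3 and Tlr4 to interferon genes. Endothelial cells are known to respond to lipopolysaccharide, and CD14 is best known from monocytes and macrophages.

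The files hold log2(normalized FPKM + 1), where FPKM is fragments per kilobase of transcript, scaled to the size of the library, so levels of different genes can be compared per length. Where a pair of levels is given, HG+HBS comes first, and an interval after a ratio covers counting error only. The values correspond to roughly 13300000 fragments of HG+HBS and 11600000 of HG+PC-NVs. Of the labelled cell type, the 12 endothelial markers were low in both libraries, with Pecam1 at 1.05 and 0.938 FPKM, Cdh5 at 5.05 and 5.73 FPKM, and 8 of the 12 with the vehicle and 9 with PC-NVs under 1 FPKM. Fibroblast and myeloid markers, given further on, were higher. In bulk RNA, fewer cells of a type and less RNA per cell cannot be told apart, nor can RNA carried in by the vesicles be told apart from RNA made by the cells.

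In HG+HBS the genes of lipopolysaccharide recognition were the highest of the 10. Lbp had 50.9 FPKM and Cd14 had 36.6 FPKM, followed by Tlr4 (23.9 FPKM), Ly96 (23.4 FPKM) and Myd88 (22.2 FPKM), whose 95% Wilson intervals for counting error overlapped with their neighbours. Ticam1 had 12.2 FPKM, Tlr2 6.80 FPKM, Irak3 3.79 FPKM and Tlr3 2.97 FPKM, with the intervals of Irak3 and Tlr3 overlapping. Tlr6 was the lowest, at 0.369 FPKM or about 18.1 fragments. In HG+PC-NVs the order differed, with Cd14 first at 252 FPKM and Lbp next at 52.8 FPKM. Tlr4 had 35.0 FPKM, and Myd88 (27.4 FPKM), Tlr2 (27.2 FPKM) and Ly96 (23.4 FPKM) overlapped in their intervals. Irak3 followed with 15.6 FPKM and passed Ticam1, which had 12.6 FPKM, while Tlr3 (3.97 FPKM) and Tlr6 (0.364 FPKM) were again last. The summed level of the 10 genes was 183 FPKM with the vehicle and 450.2 FPKM with PC-NVs, of which Cd14 alone made up 20.0% and 55.9%.

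**Figure D1:**
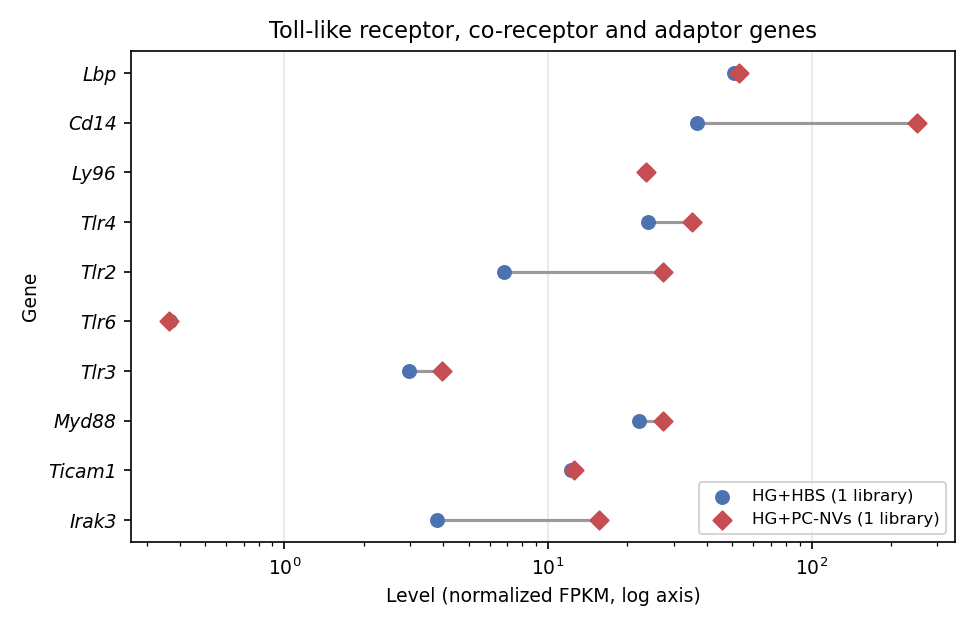
Level of each of the 10 genes (rows) in normalized FPKM on a log axis, with 1 point per library and a line joining the libraries. Cd14 (36.6 and 252 FPKM), Tlr2 (6.80 and 27.2 FPKM) and Irak3 (3.79 and 15.6 FPKM) have long lines, and the points of Lbp, Ly96, Ticam1 and Tlr6 nearly coincide.

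Among the genes of the lipopolysaccharide receptor complex, Cd14 stood apart from its partners. Cd14, the membrane-anchored co-receptor, lies on chromosome 18 of GRCm38 from 36725067 to 36726798 on the reverse strand (GENCODE M21), and its longest coding transcript has 2 exons and 1641 nt. Its level was 36.6 FPKM with the vehicle and 252 FPKM with PC-NVs, from about 802 and 4812 fragments. HG+PC-NVs was thus 6.87 times HG+HBS (95% counting interval 6.38 to 7.4), a log2 ratio of 2.75 on the log2(FPKM + 1) scale used for ratios throughout. By level, Cd14 ranked 2227 of all symbols with the vehicle and 319 with PC-NVs, and its ratio ranked 33 among the 11785 genes compared.

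Ly96, which encodes MD-2 (chromosome 1, 16688051 to 16709611, forward strand), had the same summed level in both libraries, 23.4 FPKM, with an interval of the ratio from 0.816 to 1.23. It has 2 rows in the files. The main row had 22.7 FPKM with the vehicle and 23.4 FPKM with PC-NVs, and the minor row had 0.719 FPKM in HG+HBS and was listed at 0 in HG+PC-NVs. Lbp (chromosome 2, 158306493 to 158332852, forward strand), the secreted lipopolysaccharide-binding protein, had 50.9 and 52.8 FPKM, a ratio of 1.04 (0.969 to 1.11). Tlr4 (chromosome 4, 66827584 to 66930284, forward strand), the signalling receptor, had 23.9 FPKM with the vehicle and 35.0 FPKM with PC-NVs. Its ratio of 1.47 had a counting interval of 1.36 to 1.58, above 1 but under the 2-fold threshold. The mRNA levels of these genes therefore stood in other proportions in the 2 libraries, and the proteins of the complex were not measured here. Cd14 was 1.53 times Tlr4 with the vehicle and 7.18 times with PC-NVs, and 1.56 and 10.7 times Ly96.

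Tlr2 was the receptor with the largest ratio of the 4 in the list. It recognizes bacterial lipopeptides as a dimer with Tlr1 or Tlr6, and Cd14 also serves it as a co-receptor. Tlr2 (chromosome 3, 83836272 to 83841767, reverse strand) had 6.80 FPKM with the vehicle and 27.2 FPKM with PC-NVs, from about 273 and 956 fragments, a ratio of 4.0 (3.50 to 4.58) and a log2 ratio of 1.86. Its dimer partners were low, with too few fragments to resolve a difference between the libraries. Tlr6 (chromosome 5, 64952031 to 64960097, reverse strand) had 0.369 and 0.364 FPKM, and with only about 18.1 and 15.6 fragments its ratio of 0.987 had an interval of 0.508 to 1.92. Tlr1 had 0.837 and 0.914 FPKM, a ratio of 1.09 (0.677 to 1.76) from about 33.8 and 32.2 fragments. Of the 50-base stretches of the longest coding Tlr6 transcript, 12.6% also occur in transcripts of other genes, Tlr1 among them, so the split of reads between these paralogs is uncertain. Tlr2 was 18.4 times Tlr6 with the vehicle and 74.8 times with PC-NVs.

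The endosomal receptor Tlr3, which binds double-stranded RNA (chromosome 8, 45395665 to 45411080, reverse strand), had 2.97 FPKM with the vehicle and 3.97 FPKM with PC-NVs. Its ratio was 1.34 (1.09 to 1.64), and its log2 ratio was 0.32. Ticam1, the adaptor that Tlr3 signals through (chromosome 17, 56269319 to 56276786, reverse strand), had 12.2 and 12.6 FPKM, a ratio of 1.03 (0.903 to 1.17). Myd88 (chromosome 9, 119335934 to 119341411, reverse strand) had 22.2 FPKM with the vehicle and 27.4 FPKM with PC-NVs, a ratio of 1.24 (1.10 to 1.38). Both adaptors were thus much closer between the libraries than Cd14 and Tlr2 were. Myd88 overlaps the gene Acaa1a on the opposite strand, and 9.16% of the 50-base stretches of its transcript are shared with it. The libraries came from a strand-specific kit, but whether strand was used in counting is not given in the sources used here, so that part of the Myd88 signal is uncertain.

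Irak3 encodes IRAK-M, a member of the IRAK family that restrains signalling from Myd88. It lies on chromosome 10 from 120141648 to 120202130 on the reverse strand. Its level was 3.79 FPKM with the vehicle and 15.6 FPKM with PC-NVs, from about 157 and 562 fragments. This was a ratio of 4.11 (3.44 to 4.91) and a log2 ratio of 1.79. The level of Irak3 relative to Myd88 was 0.171 with the vehicle and 0.569 with PC-NVs. The mRNA of the inhibitor was therefore higher in HG+PC-NVs while that of the adaptor it restrains was within the threshold.

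Bases before the start sites of Tlr2 and Irak3 are shown because both genes were over 2-fold higher in HG+PC-NVs, and those of Ticam1 because its level was nearly the same in both libraries. The RefSeq promoter table of GRCm38.p6 holds 6 of the 10 genes, Tlr2, Tlr3, Tlr6, Myd88, Irak3 and Ticam1, with 8 windows in all. Of each window the 250 bases before the start site were searched on both strands for the kappa B motif, to which NF-kB binds (GGGNNNNNCC), for the interferon-stimulated response element (GAAANNGAAA) and for the AP-1 motif (TGANTCA). Shown are the 91 bases of the Tlr2 window that lie before its annotated exons (GENCODE M21) and 30 bases around the match of Irak3 and of Ticam1. Each sequence runs from 5′ to 3′ on the strand of the gene, and capitals mark kappa B matches, overlapping ones joined.
Tlr2, chr3:83841768-83841858, reverse strand: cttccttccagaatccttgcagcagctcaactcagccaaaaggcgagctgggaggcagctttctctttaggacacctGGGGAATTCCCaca
Irak3, chr10:120201604-120201633, reverse strand: aggtctcgcaGGGCGCATCCCtggggagcg
Ticam1, chr17:56276771-56276800, reverse strand: agggaggaagGGGCGGAACCgaacgctccc

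In Tlr2 the matches formed a single stretch from 173 to 163 bases before the start site. In Irak3 they lay from 26 to 16 bases before it, all 11 bases within annotated exons of that gene in GENCODE M21. The window of a second Irak3 start site further upstream held none. Ticam1, whose level barely differed, had a match from 23 to 14 bases before its start, with 6 of its 10 bases in an annotated exon. Tlr3 had 2 separate kappa B matches, Tlr6 had 1 in the window of its upstream start site, and Myd88 had none. An interferon-stimulated response element was matched from 40 to 31 bases before the start of Myd88 and at 2 overlapping places in a Tlr6 window, and AP-1 was matched in none of the 8. Across all 32851 windows of the table, 45.8% held a kappa B match, 2.98% an interferon-stimulated response element and 6.75% an AP-1 match. A match is a run of letters and not a site shown to be used, and the kappa B letters are found so often that their presence here is common.

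Of the 10 genes, 9 passed the filter on level, a mean log2(FPKM + 1) of at least 1, and all 9 also reached that level in HG+HBS alone. Tlr6 did not. Past a 2-fold difference, 3 of the 9 were higher in HG+PC-NVs (Cd14, Tlr2 and Irak3), beside 2.38% of the 11785 genes compared (281 genes), and 0 were lower, beside 0.798% (94 genes). The genes were chosen with these ratios known, so nothing is read from that gap. The other 6 had log2 ratios from 0.00 (Ly96) to 0.53 (Tlr4). The gene nearest to the threshold above it was Irak3, at 1.79, and the nearest below it was Tlr4. The median log2 ratio was 0.32 over the 9 genes and -0.01 over all genes compared, whose 5th and 95th percentiles were -0.50 and 0.61. Tlr4 was under that 95th percentile.

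**Figure D2:**
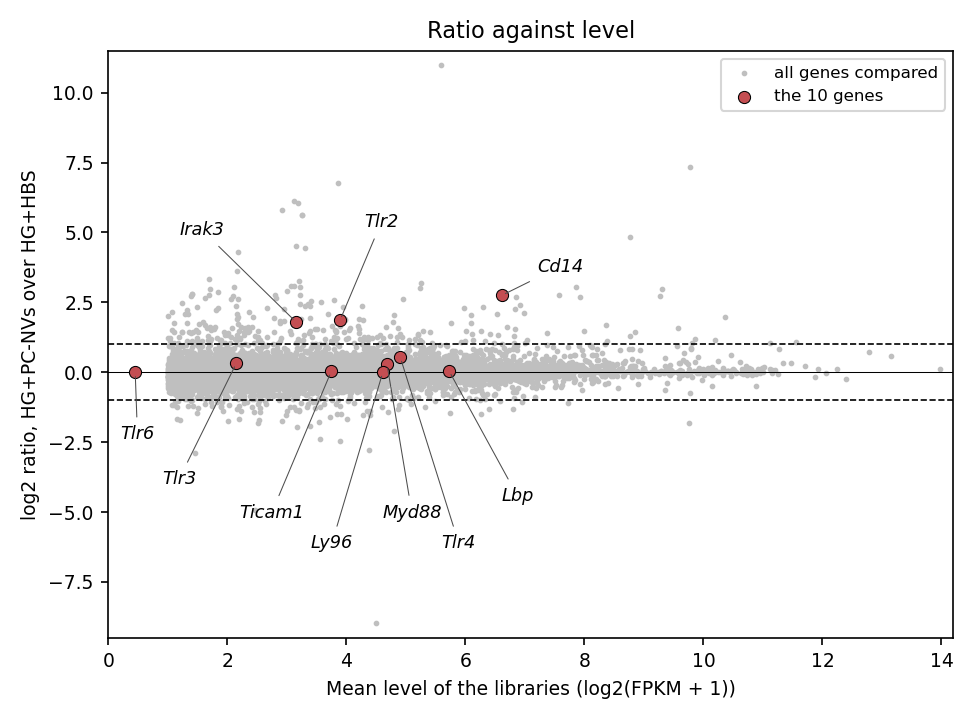
The log2 ratio of HG+PC-NVs over HG+HBS (vertical) against the mean level in log2(FPKM + 1) (horizontal), with 1 grey point for each of the 11785 genes compared and red points for the 10 genes. Dashed lines mark a 2-fold difference, and only Cd14 (2.75), Tlr2 (1.86) and Irak3 (1.79) of the red points are above the upper line.

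**Figure D3:**
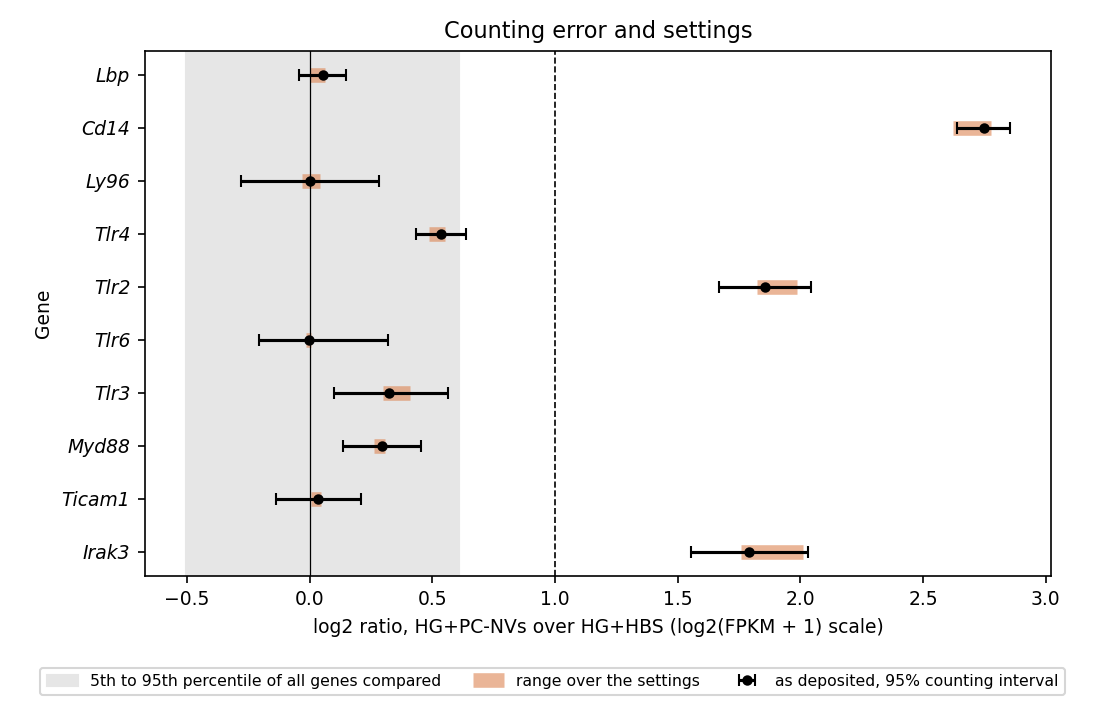
The log2 ratio of each of the 10 genes as deposited (black points) with its 95% interval for counting error (bars), the range over the normalizations, pseudocount and row choice tried (orange), and the 5th to 95th percentile of all genes compared (grey band). Cd14, Tlr2 and Irak3 lie right of the dashed 2-fold line with their whole intervals, and those of Ly96, Lbp, Ticam1 and Tlr6 include 0.

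The other genes of the pathway were taken from 9 lists by role, 130 genes in all, of which 113 passed the filter. Of these, 29 were over 2-fold higher in HG+PC-NVs, beside 2.38% of all genes compared, and 0 were lower, beside 0.798%. The filter bears on this count, since 9 of the 29, S100a9 and 8 inflammatory target genes, passed it only through their level in HG+PC-NVs. Of the 104 genes that reached a log2 value of 1 in HG+HBS itself, a limit chosen after the data were seen, 20 were higher and 0 lower, beside 1.85% and 0.889% of all genes chosen that way, with a median log2 ratio of 0.33. The lists were written with earlier results of these libraries known and are no independent evidence.

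At the ligand end, 4 of 12 proteins of the body's own tissues that are reported to act on Toll-like receptors were over 2-fold higher, of which S100a9 passed the filter only through HG+PC-NVs. Saa3, an acute-phase serum amyloid, had 67.8 FPKM with the vehicle and 11018 FPKM with PC-NVs, a log2 ratio of 7.32. S100a8, a calcium-binding alarmin, had 238 and 1579 FPKM. Its partner S100a9 was under the floor of 3 fragments with the vehicle. With PC-NVs it had 5.96 FPKM, at least 13.7-fold higher than that floor of the vehicle library. The proteoglycan Vcan had 57.7 and 147 FPKM. The most abundant matrix members were not higher, with log2 ratios of -0.29 for Bgn and -0.48 for Fn1.

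Of the 9 other receptors, which include the receptor homolog Cd180, 4 passed the filter on level, and 0 of these 4 were past the threshold in either direction. Of all genes compared, 2.38% were higher and 0.798% lower, so a count of 0 in a short list is not unusual. The highest were Tlr13, a receptor for bacterial ribosomal RNA, with 3.72 FPKM with the vehicle and 1.87 FPKM with PC-NVs, and Cd180 with 2.08 and 3.33 FPKM. Their ratios were 0.503 (0.392 to 0.645) and 1.6 (1.19 to 2.16), and the log2 ratio of Tlr13, -0.72, was below the 5th percentile of all genes compared. Under the filter, Tlr5 had 0.340 and 0.264 FPKM, Tlr9 had 0.104 and 0.389 FPKM, a ratio of 3.73 (1.40 to 9.91), and Tlr12 had 0.229 and 0.0263 FPKM, a ratio of 0.115 (0.0186 to 0.711), while Tlr11 was under the floor in both libraries. Of 8 genes of accessory proteins, which assist the receptors in various ways, 0 passed, and the highest, the proteases Ctsl (log2 ratio 0.88) and Ctsb (0.03), had unlike ratios. Of 3 other TIR adaptors only Tirap passed the filter, at 6.83 and 6.58 FPKM. Under it, Sarm1 was lower with PC-NVs, at 0.730 and 0.212 FPKM. Ticam2 was higher, at 0.112 and 0.571 FPKM, from only about 6.26 and 28.0 fragments. Among 22 genes of signalling kinases, ubiquitin ligases and proteins that bind them, 0 passed the threshold, with a median log2 ratio of 0.09. The ratio was above 0 for 15 of the 22 and below 0 for 7. Ikbke (0.83), Tank (0.75) and Traf3 (0.72) were above the 95th percentile of all genes compared, 0.61. The most abundant of the 22, the ubiquitin-conjugating cofactor Ube2v1 and the kinase Irak1, had log2 ratios of -0.16 and -0.06.

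Among the transcription factors and the inhibitors of the pathway some genes were past the threshold, beside 2.38% of all genes compared that were higher. Of 15 transcription factors 3 were higher, the NF-kB subunit Relb (11.2 and 24 FPKM), Fos (3.74 and 8.66 FPKM) and Cebpb (88.8 and 182 FPKM), all of them close to it, with log2 ratios of 1.03 to 1.04. The most abundant, Irf7 (0.78) and Cebpd (0.89), stayed within it. With upper-quartile scaling 1 transcription factor was past the threshold, and with quantile normalization 2 were. Of 18 inhibitors of the pathway over the filter 5 were higher, as Irak3 was. Zc3h12a, an RNase that degrades inflammatory mRNAs, had 1.79 FPKM with the vehicle and 16.6 FPKM with PC-NVs. Nfkbiz, an atypical IkB protein that also activates some NF-kB targets, had 4.69 and 33.0 FPKM. Tnfaip3 (A20, a ubiquitin-editing enzyme) had 1.44 and 6.35 FPKM, and its partner Tnip1 had 14 and 36.4 FPKM. Nfkbia, which holds NF-kB in the cytoplasm, had 5.68 and 18.4 FPKM. The most abundant inhibitors did not pass, with log2 ratios of 0.84 for Il1rl1 and 0.00 for Tax1bp1.

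Of the 12 inflammatory target genes that reached a log2 value of 1 in HG+HBS itself, 9 were over 2-fold higher, beside 1.85% of all genes chosen that way. Their median log2 ratio was 2.17. With the filter on the mean there were 20, of which 17 were higher, beside 2.38% of all genes compared. Of the 17, 8 passed that filter only through their level in HG+PC-NVs. The median of the 20, 2.71 (2.69 with the genes under the floor set to it), is raised by the same choice. The adhesion genes Icam1 (log2 ratio 0.40), Sele (0.64) and Vcam1 (0.83) were compared and stayed within the threshold. Among genes with many fragments in HG+HBS, Lcn2 had 80.4 and 2334 FPKM, Ccl2 had 224 and 1768 FPKM, Ccl7 had 95.2 and 618 FPKM, and Ptgs2 had 44.5 and 293 FPKM. Cxcl10 had 16 and 40.8 FPKM and Ccl5 had 7.36 and 25.4 FPKM. Ccl3 and Ccl4 had log2 ratios of 2.78 and 1.27. The cytokine gene Il6 had 1.09 and 45.1 FPKM, a ratio of 41.3 (29.4 to 57.9). Csf3, which encodes a granulocyte growth factor, had 0.390 and 150.7 FPKM, and Saa2 had 0.356 and 66.7 FPKM, from about 7.34 and 3.10 fragments in HG+HBS. Saa1 and Saa2 are near-identical paralogs, so the split of reads between them is uncertain. Cxcl1 (0.118 and 73.2 FPKM), Saa1 (0.359 and 66.2 FPKM) and Nos2 (0.0209 and 5.78 FPKM) rested on about 1.5, 2.92 and 1.17 fragments in HG+HBS. Their ratios were 619 (143 to 2678), 184 (61.6 to 551) and 277 (54.2 to 1414). Tnf, Cxcl2 and Cxcl5 had 0.245, 0.157 and 0.239 FPKM in HG+HBS and 2.52, 4.43 and 7.45 FPKM in HG+PC-NVs. Under the filter on level, Il1b had 0.0615 and 1.35 FPKM and Il1a had 0.193 and 1.89 FPKM. Il12a, Il12b, Ifnb1 and Csf2 were at or under the floor in both libraries.

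The list of interferon-induced target genes had smaller ratios. Of its 13 genes 0 passed the 2-fold threshold, beside 2.38% of all genes compared that were higher and 0.798% that were lower. This count depends on how genes were placed in the lists. Cxcl10 and Ccl5, with log2 ratios of 1.30 and 1.66, were placed with the inflammatory targets. The list does not measure signalling through Ticam1 itself. Of the 13, 11 had a ratio above 0, and the median log2 ratio was 0.37. The highest were Ifit3, with 106 and 113 FPKM, and Isg15, with 73.3 and 135 FPKM. The difference between the target lists was not tested.

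**Figure D4:**
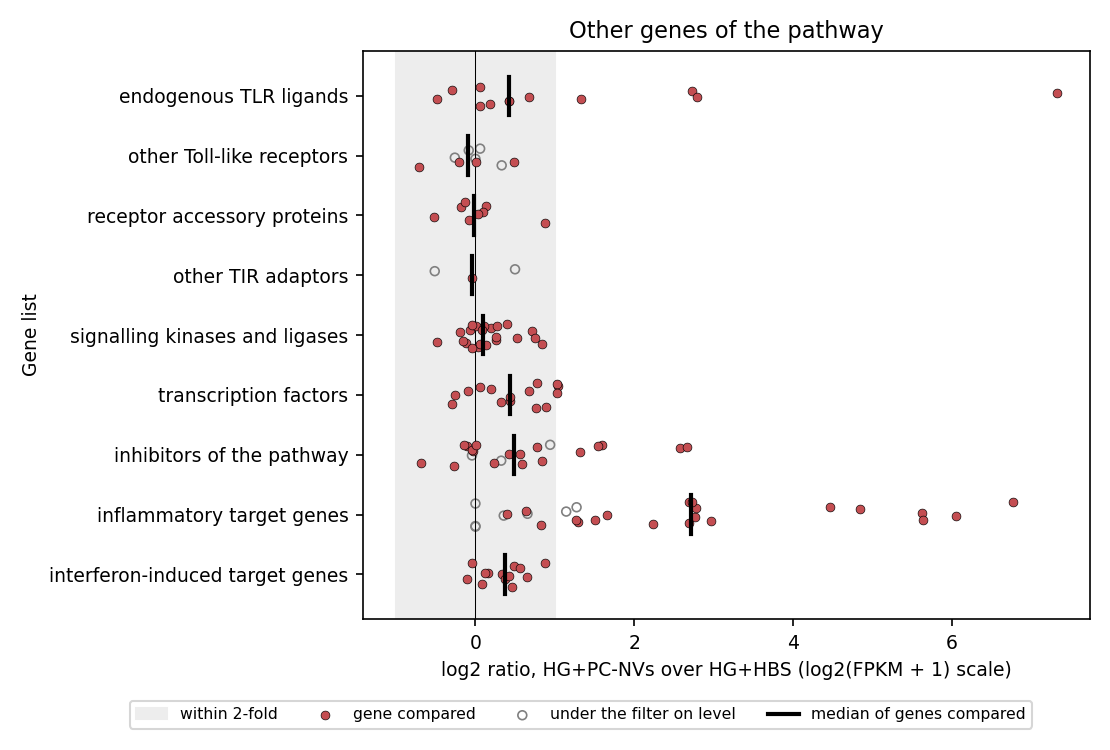
The log2 ratio of HG+PC-NVs over HG+HBS for each gene of the 9 pathway lists (rows), with filled points for genes over the filter on level, open points for genes under it and black bars for the median of the filled points. The bars of the receptor, accessory, adaptor and kinase lists lie between -0.10 and 0.09, and that of the inflammatory target genes, 8 of which passed the filter only through HG+PC-NVs, lies at 2.71.

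Since Cd14 marks myeloid cells, 17 other myeloid markers were set beside it, a list without Cd14 in it. The list had a summed level of 495 FPKM with the vehicle and 522 FPKM with PC-NVs. The highest were Lyz2 (212 and 193 FPKM) and C1qc (45.6 and 42.9 FPKM). Of the 16 over the filter, 3 were over 2-fold higher, beside 2.38% of all genes compared. These were the macrophage receptor Adgre1 (7.44 and 42.5 FPKM), Aif1 (2.93 and 12.9 FPKM) and the Fc receptor subunit Fcer1g (18.8 and 41.1 FPKM). Mrc1, a mannose receptor, was over 2-fold lower (3.76 and 1.27 FPKM), beside 0.798% of all genes compared. Of the 16, 8 had a ratio below 0. The other 13 markers had log2 ratios between -0.44 and 0.43 and summed to 462 and 425 FPKM. Cd14 amounted to 0.0741 of the summed markers with the vehicle and 0.482 with PC-NVs. The part of myeloid cells in the levels of Cd14, Tlr2 and Irak3 was not tested.

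Markers of the other cells that the cultures could hold were set beside these results as well. The 12 endothelial markers summed to 35.5 FPKM with the vehicle and 28.7 FPKM with PC-NVs, with Esam (17.4 and 11.7 FPKM) and Egfl7 (9.48 and 8.57 FPKM) the highest. The 7 fibroblast markers were far higher, at 1905 and 2240 FPKM, mostly Dcn (623 and 1283 FPKM) and Thy1 (549 and 412 FPKM). Dcn, the 1 of the 7 with a ratio above 0, was over 2-fold higher, and the other 6 summed to 1281 and 957 FPKM. Of 8 pericyte markers Rgs5 (1.69 and 7.23 FPKM) and Kcnj8 (7.98 and 20.4 FPKM) were over 2-fold higher in HG+PC-NVs, while Pdgfrb (38.4 and 33.7 FPKM) and Anpep (26.7 and 13.7 FPKM), the most abundant, were not. Of 5 smooth muscle markers Acta2 (27.6 and 8.02 FPKM) and Tagln (17.3 and 7.34 FPKM) were lower. Their part in the ratios of the 10 genes was not tested. Of 12 reference genes 0 passed the threshold, with a median log2 ratio of 0.16. Beside the counts of these lists, 2.38% of all genes compared were over 2-fold higher and 0.798% were lower.

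**Figure D5:**
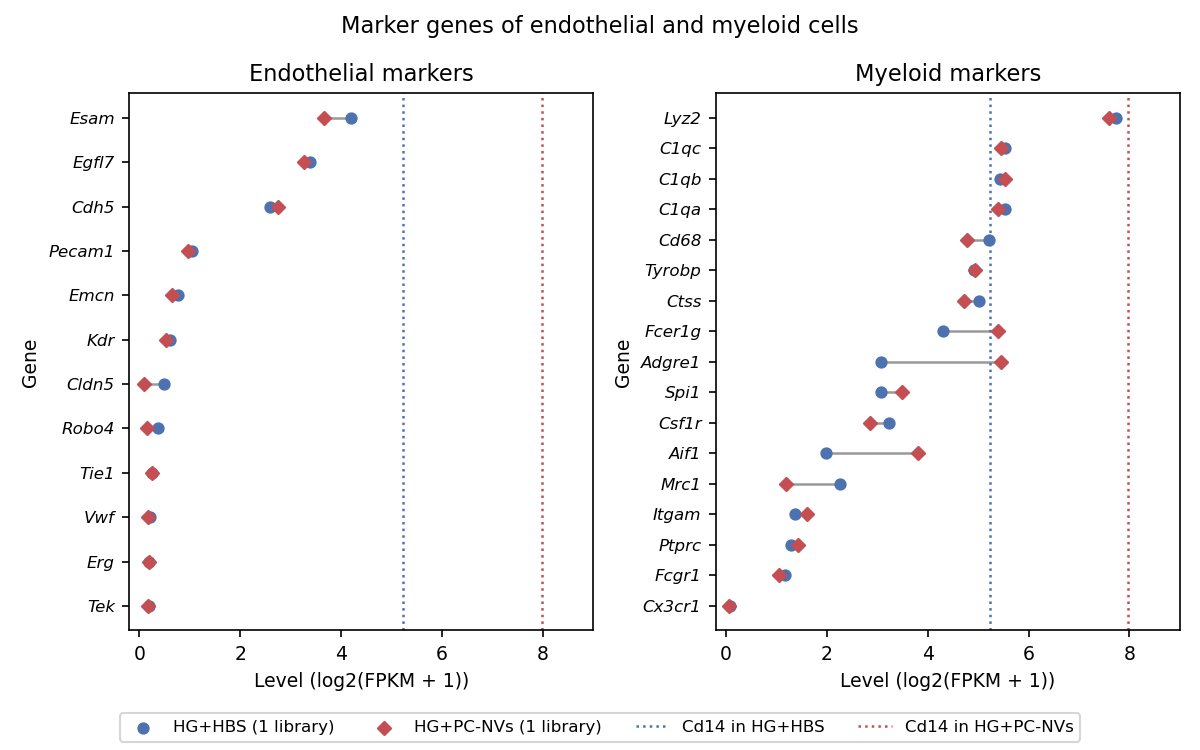
Level in log2(FPKM + 1) of the 12 endothelial markers (left) and the 17 myeloid markers (right) in each library, with dotted lines at the level of Cd14 in HG+HBS (5.23) and HG+PC-NVs (7.98). Most endothelial markers lie below 1, Lyz2 and the C1q genes lie above 5, and Adgre1 and Aif1 show the widest gaps between the libraries.

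The genes whose pattern was most like that of Cd14 were sought among the 3018 symbols with a level in HG+HBS within 2-fold of it, by the difference in log2 ratio. The nearest were C3, complement component 3 (72 and 499 FPKM, a difference of 0.03), Ptgs2, the inducible cyclooxygenase (44.5 and 293 FPKM, 0.05), and Ier3, an immediate early response gene (51.5 and 274 FPKM, 0.36). This likeness rests on a single ratio of 2 libraries.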

How the data were processed

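RNA of MCECs was sequenced as 1 library per condition. Per the study's methods and the submitters' processing notes, the authors aligned trimmed reads to mm10 with TopHat, obtained read counts with BEDTools and FPKM with Cufflinks, and normalized by quantiles with edgeR in R. Annotation and versions are not given in the sources used here. They deposited log2(normalized FPKM + 1) for 33299 rows with 23183 symbols. That the values are log2 was read from their range. The 2 libraries do not share one set of sorted values, with 17764 and 16152 symbols above 0, so a further quantile normalization was run as an alternative.

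Here the deposited values were converted to FPKM and summed over the rows of a symbol, without further normalization. Ratios are log2((HG+PC-NVs + 1)/(HG+HBS + 1)), with a minimum of 1 for a gene's mean log2 value and a threshold of 2-fold. No p-value was computed. The FPKM of 1 fragment was read from the most frequent low value of FPKM times length in kb. This used 2189 genes with a single transcript above 1500 nt. The products were 0.0750 and 0.0859, and the next peak lay at 1.99 and 2.01 times these values. Fragments of a gene use its longest coding transcript in GENCODE M21, in which 95.5% of the symbols were found. They are rough for short transcripts such as that of Ly96 (632 nt). Wilson intervals at 95% and the floor of 3 fragments cover counting error only.

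The genes, lists and tests were chosen with earlier results of these data known. The text names all 10 genes, of each list the genes past the threshold and the 2 most abundant, and the 3 genes most like Cd14; others in it were chosen after their values were seen. The calculations were tested on simulated data, in which 143 of 148 genes raised 3-fold were recovered over 11716 genes. Only genes with a single row and many fragments were changed there, with counting noise alone and equal depth. Changes of genes with few fragments and spread between cultures were not simulated. Alternatives covered normalization, pseudocount, filter, rows and threshold. Python 3.11.15, numpy 2.4.6, pandas 2.3.3 and matplotlib 3.10.9 were used.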

Additional observations from a re-analysis of the deposited data

How the results depend on the processing

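With quantile normalization, upper-quartile scaling, median centring, a pseudocount of 0.1 FPKM or the highest row of a symbol, Cd14, Tlr2 and Irak3 were each over 2-fold higher and no other of the 10 genes passed. The log2 ratio ran from 2.62 to 2.78 for Cd14, from 1.82 to 1.99 for Tlr2 and from 1.76 to 2.01 for Irak3. Of 50 ratios recomputed for the 10 genes, 49 lay within the counting interval of the value as deposited. The exception was Cd14 with quantile normalization (2.62). Ly96 and Tlr6 changed sign between settings, within ±0.05. No setting moved the median of all genes by more than 0.1.

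With a threshold of 4-fold only 1 of the 10 genes passed (Cd14), and of all genes 75 were higher and 7 lower, and of the other pathway genes 18 were higher. With 1.5-fold, 628 genes were higher and 421 lower, and of the other pathway genes 45 were higher and 2 lower. With the minimum for the mean log2 value raised to 3, 160 genes were higher and 49 lower. With the pseudocount of 0.1 FPKM, 190 were lower, and higher genes were 64.4% of those past the threshold against 74.9% in the main setting. A filter on HG+HBS alone was added after the data were seen. It kept the 3 calls among the 10 genes and left 219 genes higher and 105 lower. Of 300 counts recomputed for single lists, 277 stayed within 1.5 times the main count. Most of the main list counts were 0, and a stricter threshold or filter cannot move a count of 0. The 277 therefore say little about how stable the other counts are.

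No paired analysis was possible because each condition has 1 library, and leaving out a replicate was not possible either. Depth limits Tlr6 and the targets with few fragments in HG+HBS.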
